A study of Mus musculus with 13 samples.

Results

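A run of 3 adjacent genes on mouse chromosome 1 was followed through regulatory T cell (Treg) development with and without the transcription factor c-Rel. They are Lad1, Tnnt2 and Tnni1, taken by symbol from the count tables, and all 3 were found among the 47729 genes listed. They were chosen by their measured difference between the genotypes in these same libraries, so the genotype differences of the 3 genes are given as descriptions, with no test. In the GRCm38 coordinates deposited with the counts, Tnni1 (ENSMUSG00000026418) lay at chr1:135779434-135810989, Lad1 (ENSMUSG00000041782) at chr1:135818598-135833342 and Tnnt2 (ENSMUSG00000026414) at chr1:135836354-135852260, all on the forward strand. The end of Tnni1 and the start of Lad1 were 7608 bases apart, and the end of Lad1 and the start of Tnnt2 were 3011 bases apart. The whole stretch spans 72.8 kb, and the pre-Treg table, which also lists non-coding genes, holds 0 non-coding genes inside it.

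Ladinin 1, the product of Lad1, is an anchoring filament protein known from the basement membrane below epithelia. Tnnt2 encodes cardiac troponin T, the subunit that ties the troponin complex to tropomyosin on the thin filament of striated muscle. Tnni1 encodes the slow skeletal form of troponin I, the inhibitory subunit of the same complex. c-Rel is a subunit of NF-kB, a family of transcription factors switched on by antigen receptor and costimulatory signals, and it is known to be needed for the normal development of Tregs in the thymus.

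The cells came from C57BL6/J mice that all carried the Foxp3rfp reporter, in which a red fluorescent protein marks expression of the Treg transcription factor Foxp3. The wild type was cRel+/+Foxp3rfp and the knockout cRel-/-Foxp3rfp. Thymic pre-Tregs (2 wild-type libraries, 3 knockout), thymic de novo Tregs (2 of each genotype) and splenic tTreg cells (2 of each) were enriched magnetically for CD4 and sorted. The sources used here do not give age, sex or the number of animals per library, and nothing says that the libraries of a group came from separate animals, so the p-values measure the spread between libraries, which may be technical. Each stage was deposited as its own count table, so stage and table cannot be told apart, nor can the splenic stage and the tissue.

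The promoter windows of the 3 genes are shown so that a reader can compare what precedes each start. The genes lie side by side, and their mean levels were lower in the knockout at every stage. For Tnni1 the libraries of the genotypes overlapped in pre-Tregs and in splenic Tregs. The sequences are the 250 bases before the annotated start, from RefSeq (GRCm38.p6), forward strand, 5′ to 3′, and all 3 genes were matched by symbol. Capitals mark matches, on either strand, to the E-box letters CANNTG, which muscle regulatory factors bind, and to the M-CAT letters CATTCCT, bound by TEAD factors.
Tnni1, chr1:135799171-135799420: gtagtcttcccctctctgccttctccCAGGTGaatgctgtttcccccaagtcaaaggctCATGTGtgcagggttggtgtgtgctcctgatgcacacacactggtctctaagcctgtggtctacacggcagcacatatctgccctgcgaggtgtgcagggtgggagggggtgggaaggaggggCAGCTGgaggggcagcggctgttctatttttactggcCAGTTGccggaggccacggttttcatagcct
Lad1, chr1:135818348-135818597: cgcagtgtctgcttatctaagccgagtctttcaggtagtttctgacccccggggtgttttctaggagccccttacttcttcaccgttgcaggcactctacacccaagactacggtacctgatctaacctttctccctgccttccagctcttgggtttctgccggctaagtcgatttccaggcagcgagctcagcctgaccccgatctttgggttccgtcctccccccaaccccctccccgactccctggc
Tnnt2, chr1:135836084-135836333: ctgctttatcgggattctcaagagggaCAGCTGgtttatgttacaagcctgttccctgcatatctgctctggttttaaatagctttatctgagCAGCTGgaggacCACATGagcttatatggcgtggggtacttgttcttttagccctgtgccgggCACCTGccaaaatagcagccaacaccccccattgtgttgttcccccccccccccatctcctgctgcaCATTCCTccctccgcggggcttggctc

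The Tnni1 window held 4 E-box matches and the Tnnt2 window held 4 E-box matches and 1 M-CAT match, whereas the Lad1 window held no match to any motif searched. E-box letters occurred in 66.2% and M-CAT letters in 4.51% of the 32851 mouse promoter windows of the same length. Of the same windows 7.25% matched the NF-kB consensus, 2.92% the MEF2 consensus and 12.4% the letters TATAAA, and none of these 3 was found in the windows printed here; that says only that these letters are not in these stretches. GC content was 58.4% for Tnni1, 57.6% for Lad1 and 54.0% for Tnnt2. The Tnni1 window lies inside the gene as deposited, because the deposited model includes a longer transcript that starts upstream of the RefSeq start at position 135799421. RefSeq lists a further start for Tnni1 and for Tnnt2, and the windows before these held 2 and 1 E-box matches and no match to the other motifs.

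Levels are given in CPM, reads scaled to the same library total in all libraries, after TMM scaling of all 13 libraries over the 22048 genes shared by the tables. Where genes are compared with each other they are given in RPKM, the CPM divided by the deposited exon length in kb. Library totals ran from 13656304 to 29866696 counts for pre-Tregs, 25122095 to 28235996 for de novo and 32291272 to 35114430 for splenic Tregs. A total of 3 counts, taken as the floor of detection, corresponded to 0.0881 to 0.218 CPM. 7 of 8 T cell and Treg markers were listed in all tables and summed to 3055 to 5683 CPM, and Foxp3 held 19.8 to 101 CPM among pre-Tregs, 748 to 869 among de novo and 682 to 921 among splenic Tregs. Rel, which encodes c-Rel, still gave 52.2 to 65.9 CPM in knockout pre-Tregs against 99.6 and 104 in wild type, 92.0 and 101 against 102 and 104 in de novo Tregs, and 43.4 and 46.1 against 47.2 and 56.6 in splenic Tregs. The sources used here do not say which exons the knockout removes, so these gene counts do not check the genotype labels. Replicate 2 of the knockout pre-Tregs stood apart: it differed from replicates 1 and 3 by a chi-square of 142 and 77.0 per gene, against 30.7 between replicates 1 and 3. This measure grows with depth, and replicate 2 had the most counts of the pre-Tregs, 29866696. The splenic knockout pair differed by 41.6, and the wild-type pairs and the de novo knockout pair by 9.16 to 13.5. Values that rest on replicate 2 of the knockout pre-Tregs are given with and without it.

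Lad1, the anchoring filament gene, was abundant in wild-type cells of every stage and far lower without c-Rel. Wild-type pre-Tregs held 438 and 495 CPM, and knockout pre-Tregs 49.8, 140 and 74.2 CPM. Wild-type de novo Tregs held 600 and 623 CPM against 28.3 and 33.7 CPM in the knockout. The 2 wild-type splenic libraries held 135 and 121 CPM and the knockout ones 4.40 and 1.61 CPM. At each stage all wild-type libraries lay above all knockout libraries, and in pre-Tregs replicate 2 was the knockout library nearest to wild type. The depth behind these values was ample outside the splenic knockout: 6041 and 6995 counts in wild-type pre-Tregs, 15658 and 16730 in wild-type de novo Tregs, and 150 and 50 in the knockout splenic libraries. Knockout means were 18.9% of wild type for pre-Tregs, 5.07% for de novo and 2.35% for splenic Tregs. From edgeR, fitted within each stage, the log2 fold changes (knockout over wild type) were −2.39 (SE 0.387), −4.30 (SE 0.0998) and −5.39 (SE 0.352). Without replicate 2 of the knockout pre-Tregs the first of these was −2.91. In bulk libraries such as these, fewer cells that express a gene and less RNA per cell cannot be told apart.

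Per length, Lad1 stood among the most abundant transcripts of wild-type thymic cells. Its mean of 180 RPKM (SD 4.71, n = 2) in wild-type de novo Tregs was higher than that of 98.79% of the 22048 shared genes, and 137 RPKM (SD 11.9, n = 2) in wild-type pre-Tregs was higher than 98.68%. In wild-type splenic Tregs 37.6 RPKM (SD 2.92, n = 2) corresponded to the 91.16th percentile. Knockout cells held 25.9 RPKM (SD 13.8, n = 3) in pre-Tregs, 9.12 RPKM (SD 1.13, n = 2) in de novo Tregs and 0.883 RPKM (SD 0.582, n = 2) in the spleen, at percentiles 87.80, 74.17 and 54.36. The order of Lad1 levels was therefore wild-type de novo, wild-type pre-Treg, wild-type splenic, knockout pre-Treg, knockout de novo and knockout splenic. Only wild-type splenic and knockout pre-Tregs overlapped among neighbours in that order, at 121 to 135 and 49.8 to 140 CPM.

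Tnnt2, the troponin T gene 3011 bases downstream of Lad1, was scarce in all cells, and it too was lower without c-Rel at every stage, by an amount near that of Lad1 in the thymus and smaller than that of Lad1 in the spleen. Wild-type pre-Tregs held 2.54 and 2.9 CPM, from 35 and 41 counts, against 0.115, 1.04 and 0.458 CPM, from 2, 31 and 8 counts, in knockout cells. De novo Tregs held 5.91 and 6.26 CPM, from 154 and 168 counts, in wild type and 0.378 and 0.199 CPM, from 9 and 5 counts, without c-Rel. Splenic Tregs held 1.86 and 1.98 CPM, from 60 and 66 counts, against 0.206 and 0.0642 CPM, from 7 and 2 counts. No knockout library of a stage reached a wild-type one, and again replicate 2 was the highest of the knockout pre-Tregs. Mean levels without c-Rel were 19.8%, 4.74% and 7.02% of wild type in the 3 stages, and the log2 fold changes were −2.24 (SE 0.732), −4.38 (SE 0.393) and −3.77 (SE 0.663). Leaving out replicate 2 of the knockout pre-Tregs moved the first to −3.21. In order of level the groups were wild-type de novo, wild-type pre-Treg, wild-type splenic, knockout pre-Treg, knockout de novo and knockout splenic, as for Lad1, with each of the 3 knockout groups overlapping the next. Knockout counts this low are imprecise: the 2 counts of the lowest splenic library allow 0.00777 to 0.232 CPM (exact 95% Poisson interval, counting error only).

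Tnni1, the troponin I gene upstream of Lad1, differed by genotype most clearly in de novo Tregs. There wild-type libraries held 2.34 and 2.12 CPM, from 61 and 57 counts, and knockout libraries 0.378 and 0.119 CPM, from 9 and 3 counts. In pre-Tregs the wild type held 4.93 and 3.26 CPM and the knockout 1.96, 3.30 and 1.26 CPM. Here the genotypes overlapped, because replicate 2 of the knockout lay just above the lower wild-type library. In splenic Tregs they overlapped as well, with 0.279 and 0.810 CPM in wild type, from 9 and 27 counts, and 0.323 and 0.0321 CPM, from 11 and 1 counts, in the knockout. Mean knockout levels were 53.1%, 11.1% and 32.6% of wild type at the 3 stages in turn. The log2 fold changes were −0.88 (SE 0.495), −3.15 (SE 0.570) and −1.57 (SE 1.01). The pre-Treg value was −1.33 without replicate 2 of the knockout. The splenic value ran from −3.93 without replicate 1 of the knockout to −0.62 without replicate 2 of the wild type, so it rests on single libraries. The order of Tnni1 levels was another: wild-type pre-Treg, wild-type de novo, knockout pre-Treg, wild-type splenic, knockout de novo and knockout splenic. Wild-type de novo and knockout pre-Tregs overlapped, as did the last 3 groups.

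**Figure D1:**
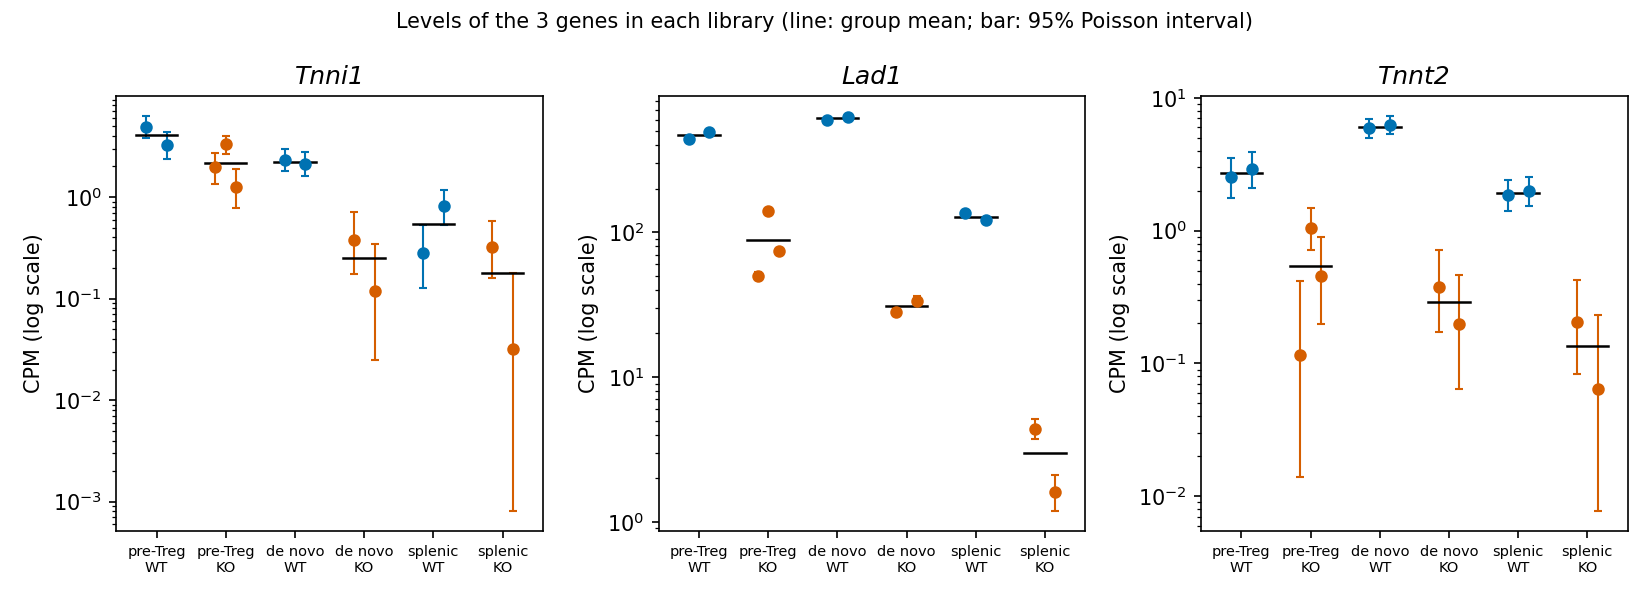
Levels of Tnni1, Lad1 and Tnnt2 in CPM, on log axes, in the 13 libraries by stage and genotype; points are libraries, bars the exact 95% Poisson interval of the count and lines the group means. Wild-type libraries (blue) lie above knockout libraries (orange) at every stage for Lad1 and Tnnt2, while Tnni1 overlaps in pre-Tregs and in splenic Tregs.

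All 3 genes passed the filter on low counts in every stage. Tnnt2 at each stage and Tnni1 in de novo Tregs passed through the wild-type libraries. In splenic Tregs Tnni1 passed through wild-type replicate 2, with 27 counts, and knockout replicate 1, with 11 counts. The groups of Lad1 and Tnnt2 did not overlap in any stage and those of Tnni1 did not in de novo Tregs. The share of all genes without overlap was not counted, and with so few libraries a lack of overlap is a weak criterion. Among tested neighbours in de novo Tregs, Timm17a and Phlda3 did not overlap either, at edgeR adjusted p-values of 0.49 and 0.195, while Ipo9, Tmem9 and Kif21b did. The shares that follow are of genes called, a stricter measure. Over all genes tested, 0.00% of 14746 were called at an adjusted p under 0.05 at the pre-Treg stage, 6.46% of 11855 at the de novo stage and 1.37% of 12264 in the spleen. Ranked by the absolute log2 fold change, Lad1 was number 119, 23 and 11 at these stages in turn, and Tnnt2 was number 142, 19 and 28. Tnni1 ranked lower, at number 1529, 42 and 292.

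The size of the genotype difference was compared between stages in a fit of the 6 group means to all 13 libraries, again as values only. For Lad1 the log2 fold change in de novo Tregs minus that in pre-Tregs was −1.90 (SE 0.550), and that in splenic minus that in de novo Tregs was −1.10 (SE 0.595). Tnnt2 differed by −2.14 (SE 0.943) from pre-Tregs to de novo Tregs and by 0.62 (SE 1.12) from de novo to splenic Tregs. Tnni1 differed by −2.25 (SE 1.05) and 1.58 (SE 1.22) over the same steps. The sign was the same for the 3 genes at the step from pre-Tregs to de novo Tregs and was not at the step to the spleen, where the SE of the troponin genes exceeded or approached the difference itself.

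Stage comparisons, which were not themselves the basis for choosing the genes, were tested with edgeR's quasi-likelihood test in the fit of 13 libraries, with p-values adjusted over 13058 genes. They use the same libraries as the genotype differences by which the genes were chosen, so their p-values are not independent of that choice. Both steps use the de novo libraries, so they are not independent. In wild-type cells Lad1 fell from 612 CPM (SD 16.0, n = 2) in de novo Tregs to 128 CPM (SD 9.93, n = 2) in splenic Tregs, a log2 fold change of −2.26 (SE 0.414, edgeR adjusted p = 0.0056). It was the only 1 of the 3 genes called in that comparison, in which 7.45% of all genes were called (3.50% higher and 3.95% lower), and both splenic libraries mattered: the adjusted p was 0.0595 without replicate 1 and 0.08 without replicate 2. For Tnnt2 the log2 fold change was −1.66 (SE 0.617, edgeR adjusted p = 0.132) and for Tnni1 −2.02 (SE 0.750, edgeR adjusted p = 0.13). Fitted on these 4 libraries alone, the edgeR adjusted p was 0.00139 for Tnnt2 and 0.0222 for Tnni1, and limma-voom gave 0.0134 for Tnnt2, so whether these 2 genes are called depends on how the spread is estimated.

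From pre-Tregs to de novo Tregs none of the 3 genes was called in wild type, where 30.7% of all genes were. The log2 fold changes there were 0.39 for Lad1 (SE 0.396, edgeR adjusted p = 0.47), 1.16 for Tnnt2 (SE 0.620, edgeR adjusted p = 0.167) and −0.87 for Tnni1 (SE 0.704, edgeR adjusted p = 0.357). With only the 2 groups in the fit the edgeR adjusted p was 0.0091 for Lad1 and 0.0112 for Tnnt2, in the same direction. In knockout cells, Lad1 fell by 1.51 on the log2 scale over this step (SE 0.387, edgeR adjusted p = 0.0106), from 88.1 CPM (SD 46.7, n = 3) to 31.0 CPM (SD 3.85, n = 2). There Tnni1 fell by 3.13 (SE 0.802, edgeR adjusted p = 0.0107), from 2.17 CPM (SD 1.04, n = 3) to 0.249 CPM (SD 0.183, n = 2), and Tnnt2 had −0.98 (SE 0.710, edgeR adjusted p = 0.308). Whether this step differs between the genotypes is the same quantity as the difference of genotype effects above, for which values alone are given. In the knockout 2 of 3 genes were called, both lower, where 32.4% of all genes were called, 17.0% lower. Leaving out either de novo knockout library ended the Lad1 call, at an edgeR adjusted p of 0.0974 and 0.0623, and leaving out replicate 2 ended the Tnni1 call, at 0.112. Without replicate 2 of the knockout pre-Tregs the log2 fold change was 0 for Tnnt2 and −1 for Lad1.

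The step from de novo to splenic Tregs in the knockout lowered Lad1 once more, from 31.0 to 3.00 CPM (SD 1.98, n = 2). The log2 fold change was −3.36 (SE 0.466, edgeR adjusted p = 0.000668), and it remained past the threshold when any library was left out, with adjusted p-values from 5.17e-06 to 0.0113. In this comparison 12.9% of all genes were called, 6.48% higher and 6.39% lower. Tnnt2, at −1.04 (SE 0.858), and Tnni1, at −0.44 (SE 0.944), had 1 to 11 counts in each of these libraries, entered the fit through other groups and did not pass the filter on these 2 groups alone, so their values are given with no test. The sign of Tnni1 turned to 0.60 without replicate 1 of the de novo knockout and to 0.39 without replicate 2 of the splenic knockout. Both genes were near the floor in the groups compared, so no stage difference could be read for them here.

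The level of each troponin gene was then read against that of Lad1 in the same library, per length. Tnnt2 had a median of 0.431% of the Lad1 level over the 13 libraries, from 0.101% to 2.05%. Within wild type the median was 0.436%, from 0.254% in a pre-Treg library to 0.718% in a splenic one. Wild-type values were lowest in pre-Tregs, at 0.254% and 0.257%, followed by de novo Tregs, at 0.431% and 0.440%, and splenic Tregs, at 0.604% and 0.718%. These did not overlap between stages, but with so few libraries that is a weak criterion, and no test was made. Among knockout libraries the median was 0.327%, and the 2 splenic knockout libraries were the highest of all, at 2.05% and 1.75%. These 2 rest on 7 and 2 counts of Tnnt2: as a share of the counts of both genes they were 4.46% (Wilson 95% interval 2.18% to 8.92%) and 3.85% (1.06% to 13%), against 1.36% (1.06% to 1.74%) and 1.61% (1.27% to 2.05%) in wild-type splenic libraries. These intervals cover counting error only and not the spread between libraries, so the ratios are given as values, with no test between the genotypes. Gene-level counts do not show where along Tnnt2 the reads lie, so transcripts that begin at Lad1 and transcripts that begin at Tnnt2 cannot be told apart here.

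Relative to Lad1, Tnni1 varied over a wider range. Its per-length level had a median of 1.06% of Lad1, from 0.195% to 6.93%, with a median of 0.495% in wild type and 1.89% in the knockout. In pre-Tregs the wild-type libraries held 1.06% and 0.621%, and the knockout libraries 3.71%, 2.22% and 1.60%, above both. De novo Tregs held 0.368% and 0.322% in wild type and 1.26% and 0.333% in the knockout. The reads of these genes are not readily confused with those of other genes: of all stretches of 50 bases in their annotated transcripts, 0 of 3350 for Lad1, 10 of 8134 for Tnnt2 and 14 of 3681 for Tnni1 also occurred in transcripts of another gene (GENCODE M21).

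**Figure D2:**
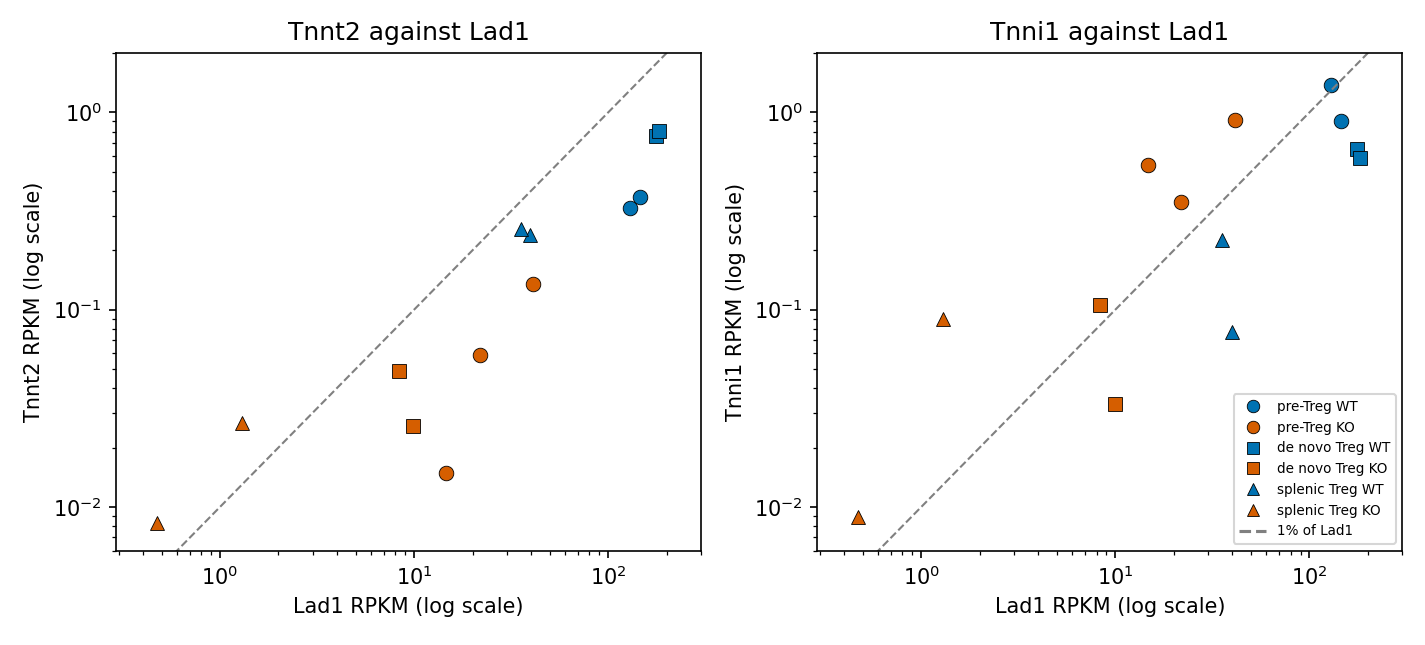
Tnnt2 (left) and Tnni1 (right) against Lad1 in RPKM, on log axes, each point a library; the dashed line marks 1% of the Lad1 level. Most Tnnt2 points run below and along the line from splenic knockout to wild-type de novo Tregs, with the 2 splenic knockout libraries above it, and Tnni1 points lie on both sides of it.

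The neighbours of the 3 genes were then read, to see how far along the chromosome lower levels reached. Of the 10 protein-coding genes on each side of Lad1, 18 are not among the 3 genes; 10 of them passed the filter in pre-Tregs and 8 in each of the other stages. Pkp1, the plakophilin gene that follows Tnnt2 on the opposite strand, had at most 6 counts in any library and was not tested. No neighbour was called in pre-Tregs (0.00% of all genes called; 969 genes had an unadjusted p under 0.05, DESeq2 called 88 genes and limma-voom 0, and by either tool 0 of these neighbours). In de novo Tregs 3 of 8 were called, 1 lower and 2 higher, where 6.46% of all genes were called, 3.54% lower and 2.92% higher. Of the 2 called higher, Nav1 passed the filter through the knockout libraries, as given below. In splenic Tregs edgeR called 0 of 8, where 1.37% of all genes were called (0.612% higher and 0.758% lower), while DESeq2 and limma-voom each called 1. The neighbours' median log2 fold change at the 3 stages was 0.10, 0.06 and −0.05, beside 0.03, −0.0027 and 0.00055 over all genes.

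Csrp1, the gene of a LIM-domain protein that binds the actin cytoskeleton, starts at −98.5 kb from the start of Lad1. In de novo Tregs it held 167 and 177 CPM in wild type and 112 and 138 CPM in the knockout. It fell by 0.46 on the log2 scale (SE 0.1, edgeR adjusted p = 0.0193). In splenic Tregs it held 114 and 109 CPM against 72.1 and 78.2 CPM, a log2 fold change of −0.56 (SE 0.107) that just missed the threshold with edgeR (adjusted p = 0.0533) and passed it with DESeq2 (adjusted p = 0.000776) and limma-voom (adjusted p = 0.0447). In pre-Tregs the genotypes overlapped, with a log2 fold change of 0.12 (SE 0.215, edgeR adjusted p = 0.865). The groups were thus apart in de novo and splenic Tregs, by a far smaller amount than for Lad1.

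Phlda3, the gene of a pleckstrin-homology protein that restrains AKT signalling, lies between Csrp1 and Tnni1. It held 5.67 and 6.26 CPM in wild-type and 4.20 and 3.61 CPM in knockout de novo Tregs, with a log2 fold change of −0.61 (SE 0.240, edgeR adjusted p = 0.195). In splenic Tregs the value was −0.69 (SE 0.262, edgeR adjusted p = 0.286) and in pre-Tregs −0.01 (SE 0.379, edgeR adjusted p = 0.992), and it was called in none of the stages. On the other side the nearest tested neighbours, Tmem9 and Kif21b, had −0.05 (SE 0.102, edgeR adjusted p = 0.852) and 0.05 (SE 0.125, edgeR adjusted p = 0.906) in de novo Tregs.

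The neighbours that rose in de novo Tregs lie further upstream. Nav1, a neuron navigator gene at −384 kb, went from 0.307 and 0.484 CPM in wild type to 1.72 and 2.10 CPM in knockout cells. That is 2.26 on the log2 scale (SE 0.504, edgeR adjusted p = 0.0218). It had 8 and 13 counts in wild type and 41 and 53 in the knockout. Nav1 thus passed the filter on low counts through the knockout libraries, where it was high, so its call is given as a description only. Rnpep, which encodes aminopeptidase B and starts at −555.9 kb, went from 112 and 110 to 146 and 145 CPM (0.39, SE 0.0785, edgeR adjusted p = 0.0133). In the fit of all 13 libraries, in which the stages share their estimate of the spread, none of the 3 was called in de novo Tregs (edgeR adjusted p = 0.469 for Csrp1, 0.519 for Nav1 and 0.539 for Rnpep). With any 1 de novo library left out, 1 or 2 neighbours were called. The test of whether a neighbour's genotype effect differed between stages called none, the lowest edgeR adjusted p being 0.275. Of all 13058 genes it called 11 between de novo and pre-Tregs, 1 between splenic and de novo Tregs and 28 between splenic and pre-Tregs. With so few calls over all genes, none among the neighbours says little about them.

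**Figure D3:**
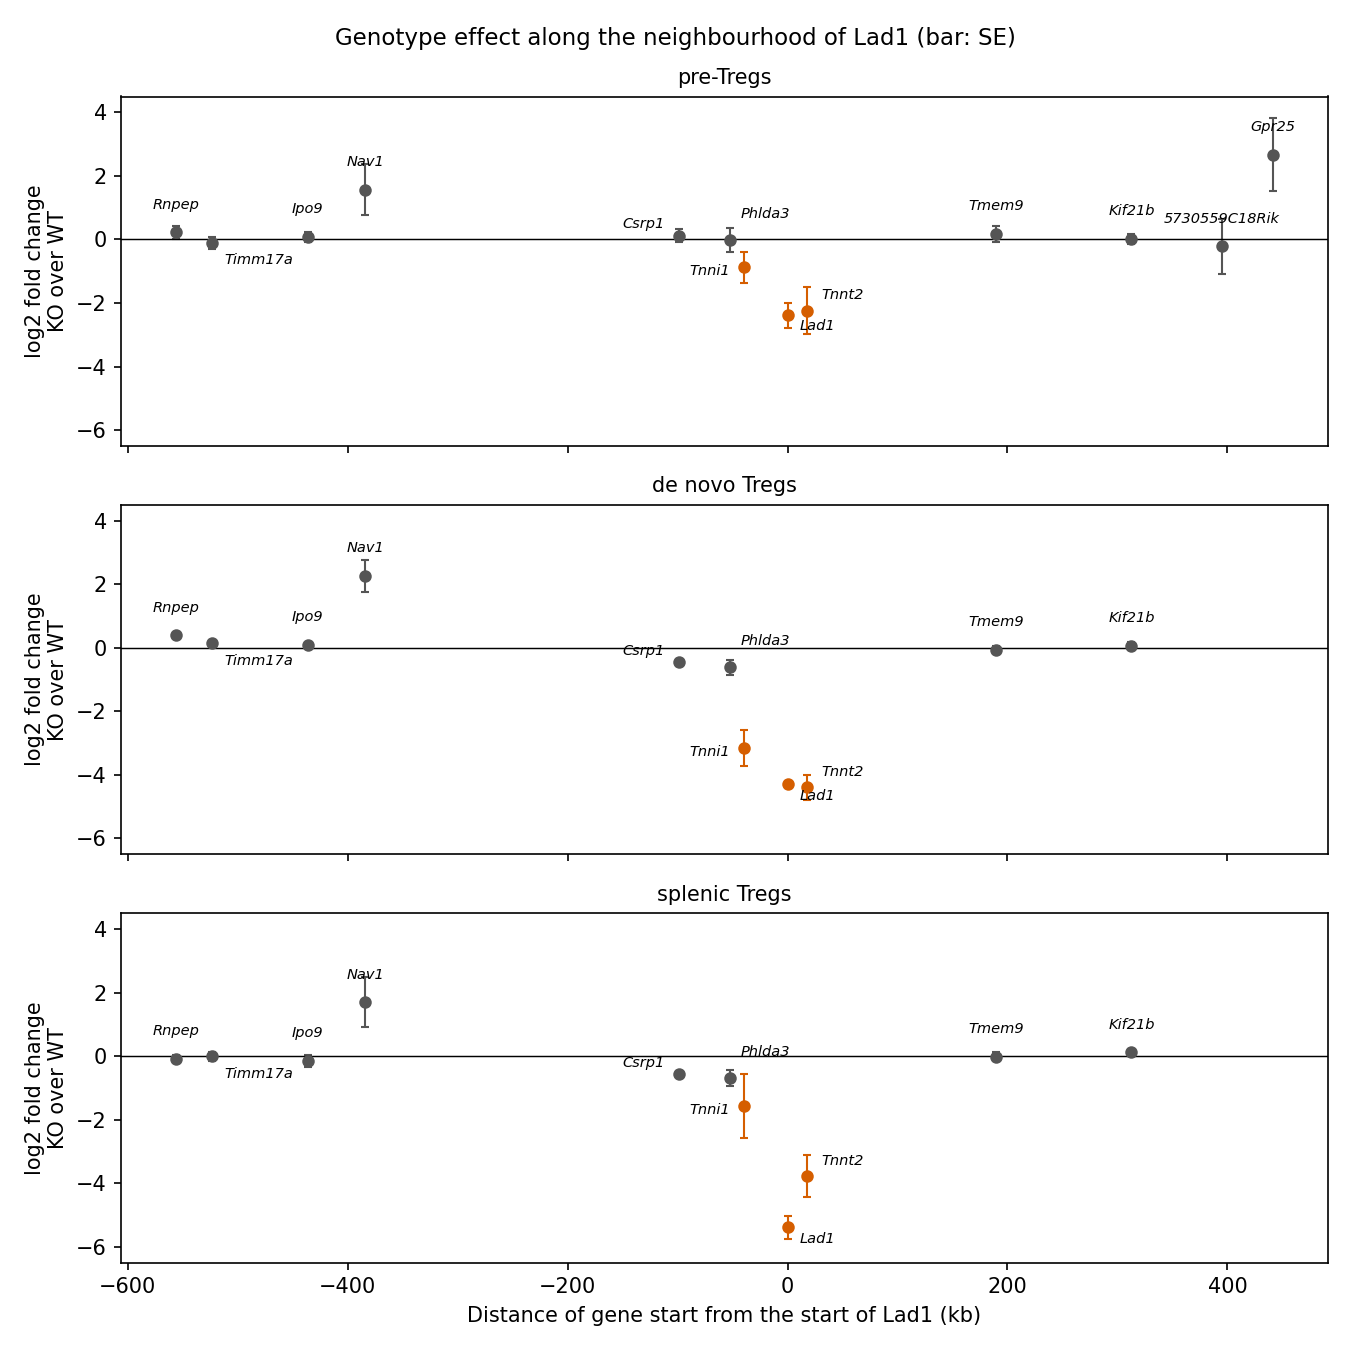
Log2 fold change of knockout over wild type, with SE bars, for the tested genes around Lad1 by the distance of their start from that of Lad1 in kb, for each stage; Tnni1, Lad1 and Tnnt2 are orange, other genes grey. The lowest values at every stage are those of the 3 adjacent genes, which were chosen by this difference. Tmem9 and Kif21b on the right lie at 0.16 or less in size. Further right, 5730559C18Rik and Gpr25 were tested in pre-Tregs only, at −0.22 (SE 0.875) and 2.67 (SE 1.15), and were not called.

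Genes whose levels ran most like those of the 3 genes were looked up over the 13 libraries, among the 10192 other genes with a mean of at least 5 CPM in their highest group. The measure was Pearson's r of log2 CPM, a description, since the libraries share genotype and stage. For Lad1 the closest gene was Colq, which encodes the collagen-like tail of acetylcholinesterase, at r = 0.97. Dnajc12, a co-chaperone gene, and Tnnt2 itself followed at 0.89, then Hadha, a mitochondrial fatty acid oxidation gene, at 0.89, and Ino80c, of a chromatin remodelling complex, at 0.88. Tnnt2 was thus at rank 3. Tnni1, whose highest group mean of 4.09 CPM keeps it out of the genes ranked, had r = 0.80, a value that would place it at rank 30. Seen from Tnnt2, Lad1 was the closest of the genes compared, before Tg, Bcl2a1d, Plagl2 and Bcl2l1, whose values were 0.87 to 0.88, and the r of Tnni1, 0.64, would place it at rank 79. The 3 genes were chosen by their genotype difference, and r over the 13 libraries includes that difference. Their ranks beside each other are therefore no independent support, and no ranks within a genotype were computed. Within wild type alone Lad1 and Tnnt2 had r = 0.83 over 6 libraries, and within the knockout r = 0.73 over 7. Lad1 and Tnni1 had r = 0.83 and 0.81 in the same libraries.

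Without a test of stage, Colq had a lower mean in the knockout at each stage and its lowest mean of each genotype in splenic Tregs. It held 233 and 261 CPM in wild-type and 65.5, 126 and 93.8 CPM in knockout pre-Tregs, 270 and 284 against 52.2 and 59.1 CPM in de novo Tregs, and 66.0 and 58.7 against 10.6 and 12.1 CPM in splenic Tregs. As for Lad1, knockout replicate 2 was the highest of the knockout pre-Tregs. The genotypes of Colq did not overlap at any stage, a weak criterion with so few libraries, and its share over all genes was not counted. Colq fell by 2.32 (SE 0.0892, edgeR adjusted p = 1.28e-07) in de novo Tregs and by 2.46 (SE 0.139, edgeR adjusted p = 0.000885) in splenic Tregs, and had −1.36 (SE 0.268, edgeR adjusted p = 0.483) in pre-Tregs. Bcl2l1, the gene of the survival protein BCL-XL, fell by 1.94 (SE 0.0954, edgeR adjusted p = 6.05e-07) and 0.75 (SE 0.120, edgeR adjusted p = 0.035) in the de novo and splenic stages. These 2 genes were found by a likeness that includes the genotype difference, so their tests are no independent support.

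The genes closest to Tnni1 were Ccr8, a chemokine receptor of Tregs, at r = 0.94, and Trim32, Dnajc12, Apmap and Slc16a6, at 0.90 to 0.91. Dnajc12 was also among the 5 closest to Lad1, while seen from Tnni1 Lad1 was at rank 133 and Tnnt2 at rank 1491. Ccr8 held 274 CPM (SD 34.2, n = 2) in wild-type pre-Tregs, 237 (SD 27.5, n = 2) in wild-type de novo Tregs and 135 (SD 3.77, n = 2) in wild-type splenic Tregs. The same order, highest in pre-Tregs, held for Tnni1 in wild type, whereas Lad1 and Tnnt2 had their highest wild-type means in de novo Tregs.

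**Figure D4:**
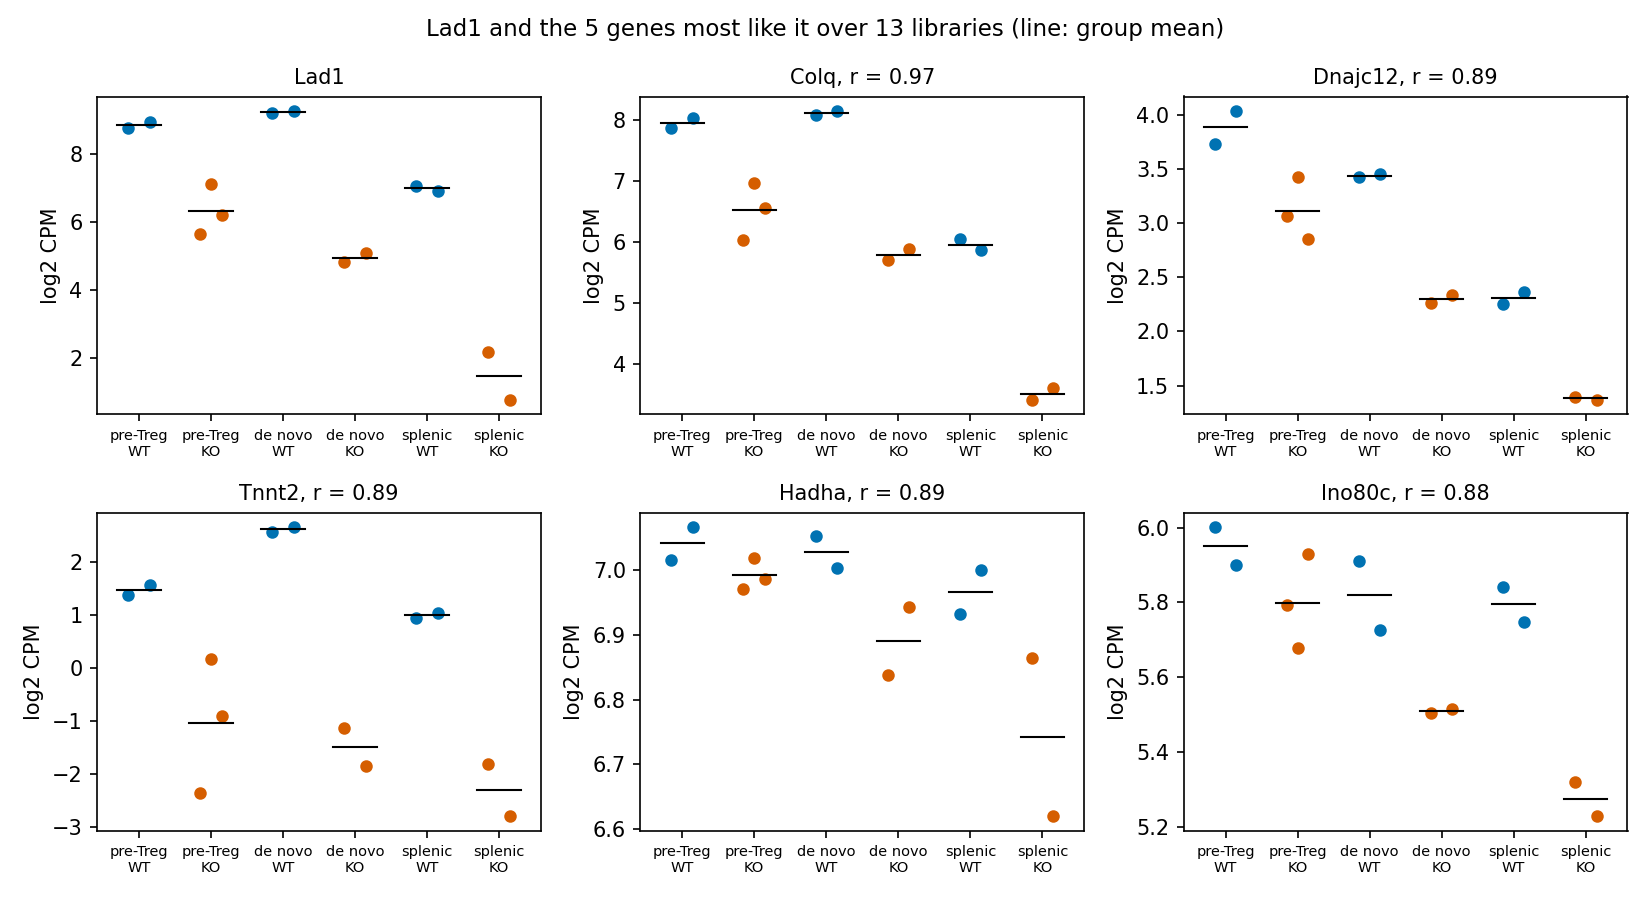
Log2 CPM of Lad1 and of the 5 genes most like it, by stage and genotype, in 13 libraries; lines are group means, and each panel has its own vertical range. Colq follows Lad1 in the order of all 6 groups except that its knockout pre-Treg mean lies above its wild-type splenic mean, and Hadha spans less than 1 log2 unit.

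The other thin filament genes had values on both sides of 0 at each stage. None that was tested was called lower in the knockout, but few genes of any kind were, so this says little about the class. Of 22 further troponin, tropomyosin, muscle actin, tropomodulin, leiomodin and nebulin-type genes on the list, 10 were tested in pre-Tregs, with 0 called, and 12 each at the later stages, with 2 called higher and 0 lower in de novo Tregs and 0 called in the spleen. Over all genes 0.00%, 6.46% (2.92% higher and 3.54% lower) and 1.37% were called at these stages. The list's median log2 fold change was 0.19, 0.06 and 0.06 in the 3 stages, beside 0.03, −0.0027 and 0.00055 over all genes. At these stages 4, 4 and 3 of the tested genes had values below 0. Nebl, a nebulin-type gene, had −1.125 (SE 0.361, edgeR adjusted p = 0.104) in de novo Tregs and 1.118 (SE 0.317, edgeR adjusted p = 0.155) in splenic Tregs. The 2 that rose in de novo Tregs were Neb, of the giant thin-filament ruler protein nebulin, from 37.4 to 92.7 CPM (1.31, SE 0.118, edgeR adjusted p = 5.82e-05), and Tmod1, which caps actin filaments, from 1.87 to 4.69 CPM (1.32, SE 0.301, edgeR adjusted p = 0.0237). Among the other troponin genes Tnnt1, the slow skeletal troponin T, had 1.17 to 2.83 RPKM and a log2 fold change of −0.48 (SE 0.288, edgeR adjusted p = 0.44) in de novo Tregs, and Tnnt3, the fast skeletal form, had 0.16 (SE 0.330, edgeR adjusted p = 0.864). Cardiac Tnni3 had −0.91 (SE 0.480, edgeR adjusted p = 0.363) there. Tnnc1 and Tnnc2, the calcium-binding troponin C genes, had at most 6 counts and 1 count in any library of 13, so troponin C was at or near the floor of detection.

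Anchoring and hemidesmosome genes, the class of Lad1, had values on both sides of 0 in de novo Tregs. Of 15 on the list 8, 9 and 8 were tested in the 3 stages, and none was called in pre-Tregs or splenic Tregs. In de novo Tregs 4 of the 9 had values above 0 and 5 below, and 2 rose, where 2.92% of all genes were called higher and 3.54% lower. The only call lower was that of Nid2, which is not counted as a fall, for the reason given below. The 2 that rose were Itga6, an integrin of hemidesmosomes and of lymphocytes, from 179 to 293 CPM (0.71, SE 0.0794, edgeR adjusted p = 0.000273), and Lamb3, a laminin chain, from 22.4 to 45.2 CPM (1.01, SE 0.119, edgeR adjusted p = 0.00039). Nid2, a basement membrane nidogen, had 23 and 15 counts in wild type and 0 and 0 in the knockout, which is at least 5.88-fold lower at a floor of 3 counts per library (edgeR adjusted p = 0.0162). It passed the filter on low counts through the wild-type libraries alone, which fixes the direction of its difference, so its call is given as a description only. The list's median log2 fold change was −0.17, −0.05 and 0.22 at the 3 stages. Between wild-type pre-Tregs and de novo Tregs, 4 of 10 rose, with Itga6 at 1.47 (SE 0.190, edgeR adjusted p = 0.000281) and Plec, of the cytoskeletal linker plectin, at 0.96 (SE 0.162, edgeR adjusted p = 0.00144), and 0 fell, where 30.7% of all genes were called.

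Markers of cells that normally make these proteins were read in the same libraries. The 16 markers of striated muscle summed to 6.84 to 45.6 CPM, of which Ttn, the gene of titin, gave 0.977 to 37.1 CPM, and Myh1, Myh2, Myh4, Myl3 and Mb had 0 counts in all 13 libraries. The muscle sum moved with genotype in part: 23.6 to 31.7 CPM in wild-type and 14.5 to 16.9 in knockout de novo Tregs, 40.3 to 45.6 and 20.1 to 25.7 in splenic Tregs, but 7.03 to 9.42 and 6.84 to 8.63 in pre-Tregs, and its part in the levels of Tnnt2 and Tnni1 was not tested. Without Ttn the sums were 11.8 to 12.3 and 7.54 to 10.1 CPM in de novo Tregs and 7.26 to 8.43 and 7.48 to 7.80 CPM in splenic Tregs. The 11 epithelial markers, led by Epcam, summed to 18.8 to 22.6 CPM in wild-type and 32.4 to 33.7 in knockout de novo Tregs and 31.2 to 41.4 and 45.4 to 48.5 in splenic Tregs, the opposite direction from Lad1, and Psmb11 and Cldn3 had 0 counts everywhere. In pre-Tregs they summed to 19.4 to 35.2 and 30.6 to 52.9 CPM. B cell markers summed to 39.0 to 45.8 CPM in wild-type and 61.8 to 90.7 CPM in knockout splenic Tregs, 29.3 to 31.4 and 35.2 to 39.1 in de novo Tregs, and 8.20 to 14.9 and 10.4 to 24.8 in pre-Tregs. Myeloid markers, led by Cst3, were lower in the knockout at the later stages, as the means of the 3 genes were. They summed to 176 to 205 and 139 to 149 CPM in splenic Tregs and 156 to 157 and 131 to 150 in de novo Tregs, but to 86.0 to 125 and 127 to 173 in pre-Tregs. CD8 T cell markers summed to 22.9 to 26.2 and 15.5 to 17.6 CPM in splenic Tregs, with the knockout lower, and overlapped in de novo Tregs, at 32.6 to 38.4 and 27.9 to 33.3, and in pre-Tregs, at 32.5 to 45.1 and 25.9 to 40.1. The part of these markers in the levels of the 3 genes was not tested. Over all libraries erythroid and platelet markers summed to 0.63 to 111 CPM, with both extremes in de novo Tregs.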

How the data were processed

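Total RNA of sorted cells was sequenced in 13 libraries. Reads per gene were used as whole, unnormalized counts, as the authors deposited them. Tools named in the submitters' processing notes are STAR 2.5.2 and featureCounts with Subread 1.5.2, besides Picard 2.9.0, limma, FastQC and MultiQC, on GRCm38. The sources used here do not give the annotation release or the strand setting. All 13 sample columns were used and 0 left out. Sample titles gave the groups and replicate numbers. The numbers were not shown to pair libraries: deviations of same-numbered libraries correlated at −0.156, −0.0202 and −0.106 at the pre-Treg, de novo and splenic stage.

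In R 4.3.3, edgeR 4.0.16 fitted genotype within each stage (TMM, filterByExpr with a minimum count of 10 and a minimum total of 15, quasi-likelihood F-test), and fitted the 6 group means to all 13 libraries for stage effects and for differences between stages. P-values were adjusted by Benjamini-Hochberg over all genes tested, and calls, also written as rises and falls, need an adjusted p under 0.05. At the 3 stages the biological coefficient of variation was 0.284, 0.0939 and 0.131. The scripts were tested on simulated data. Alternatives were DESeq2 1.42.0, limma-voom (limma 3.58.1), DESeq2 size factors in edgeR, no filter on low counts, other sets of libraries in the fit, a replicate block and each library left out.

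The 3 genes and the gene lists were chosen with earlier results of these data known. Neighbours described in turn are the 2 nearest tested on each side and every one called, among 10 protein-coding genes on either side of Lad1. Likeness used the 5 genes with the highest r on log2 CPM with a prior count of 2, and lists name up to 4 members by adjusted p. The other troponin genes, and Colq and Bcl2l1 among the genes most like Lad1 and Tnnt2, were singled out after their values were seen.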

Additional observations from a re-analysis of the deposited data

How the results depend on the processing

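The genotype differences of the 3 genes kept their direction in all 57 values under other tools, size factors, filters, sets of libraries and blocks. Leaving out each library gave these ranges. In pre-Tregs Lad1 ran from −2.91 to −2.11, Tnnt2 from −3.21 to −1.80 and Tnni1 from −1.33 to −0.56. In de novo Tregs Lad1 ran from −4.43 to −4.18, Tnnt2 from −4.90 to −3.98 and Tnni1 from −4.17 to −2.54. In splenic Tregs Lad1 ran from −6.31 to −4.86, Tnnt2 from −4.82 to −3.20 and Tnni1 from −3.93 to −0.62, and without replicate 1 of the knockout the splenic values were the lowest for all 3 genes.

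Counts of called genes moved more, and the cause was not tested. In pre-Tregs edgeR called 0 genes, DESeq2 88, the fit without a filter 14, the 13-library fit 71 and the fit with a replicate block 77; leaving out each library gave 0 to 64, the highest without knockout replicate 2, with 0 neighbours called throughout. In de novo Tregs the count went from 766 to 100 in the 13-library fit, with 0 neighbours, and with libraries left out it was 527 to 761 genes and 1 to 2 neighbours. In splenic Tregs it went from 168 to 526 with DESeq2, 475 without a filter, 60 in the 13-library fit, 361 with the replicate block and 220 to 2508 with libraries left out, the highest without knockout replicate 1 and 1548 without knockout replicate 2. Neighbours called there were 1 with DESeq2, 1 with limma-voom, 1 without a filter, 1 with the replicate block and 0 to 3 with libraries left out. Crossing the replicate numbers of the splenic block, an alternative chosen after seeing the data, gave 803 genes and 2 neighbours.

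For the stage effects, with only the 2 groups compared in the fit, calls went from 4015 to 6340 (wild type, de novo against pre-Tregs), from 973 to 4043 (wild type, splenic against de novo; 1586 with DESeq2), from 4228 to 2201 (knockout, de novo against pre-Tregs) and from 1681 to 2717 (knockout, splenic against de novo). With libraries left out they ran from 1274 to 6025, 257 to 2230, 1860 to 6534 and 619 to 2935, each highest without replicate 2 of the knockout pre-Tregs. In that 2-group fit the wild-type de novo values were 0.38 for Lad1 and 1.15 for Tnnt2, and the wild-type splenic values −1.66 for Tnnt2, as with limma-voom, and −2.03 for Tnni1, all past the threshold as given in the report. Ranges with libraries left out were, for wild type, 0.29 to 0.47 for Lad1, 1.05 to 1.24 for Tnnt2 and −1.16 to −0.56 for Tnni1 from pre-Tregs to de novo Tregs, and −2.32 to −2.16, −1.69 to −1.60 and −2.96 to −1.44 from de novo to splenic Tregs, where Tnnt2 was called without knockout pre-Treg replicate 1 (adjusted p = 0.036, edgeR) or 2 (0.0266). For the knockout they were −1.79 to −1, −1.52 to 0 and −4.17 to −2.54, and then −4.27 to −2.80, −2.07 to −0.46 and −2.76 to 0.60, where Tnnt2 and Tnni1 were too low in both groups to be fitted on those groups alone. The replicate block changed no call of the 3 genes.

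Among the neighbours, with values near 0 and none called, Phlda3 turned sign in pre-Tregs with the replicate block (0.03) and with libraries left out (−0.31 to 0.14), as did Csrp1 (−0.07 to 0.22) and Tmem9 (−0.05 to 0.31) in pre-Tregs and Tmem9 in de novo (−0.15 to 0.04) and splenic Tregs (−0.14 to 0.10). Not divided by gene length, the median ratio to Lad1 was 0.984% for Tnnt2 and 1.13% for Tnni1, in place of 0.431% and 1.06%.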
